A study of Mus musculus with 6 samples.

Results

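The 9 chemokine receptor genes Ccr1, Ccr2, Ccr3, Ccr7, Cx3cr1, Cxcr2, Cxcr3, Cxcr4 and Cxcr6 were followed in epididymal white adipose tissue, a fat depot of the abdomen, in mice with an Eepd1 knockout (EKO) and in wild-type mice (WT). Members were taken by gene symbol from the deposited table of 32244 genes, and all 9 had a row. Both genotypes were on the C57BL/6J background and ate a high-fat diet for 3 months, so that the diet is shared and no lean group is part of the comparison. There were 3 bulk RNA libraries of each genotype. The labels give neither age nor whether each library is 1 animal, nor whether the deletion covers every tissue. The p-values therefore measure the spread between these samples, which may be partly technical. Levels are in CPM, the counts of a gene per 1000000 counts of its library after TMM scaling. Values of single libraries are given in the order of replicates 1, 2 and 3. Differences are EKO minus WT on the log2 scale, with their standard error (SE), from the edgeR quasi-likelihood test over the 16121 genes with enough counts, and adjusted p is the Benjamini-Hochberg value over all of them. Of the 9 receptors, 8 had enough counts to be tested, and Cxcr2 did not.

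Chemokine receptors are cell-surface receptors coupled to inhibitory G proteins, and they steer leukocytes along gradients of small secreted ligands, the chemokines. Each receptor marks particular cells. Ccr2 and Cx3cr1 belong to monocytes and the macrophages that descend from them, Ccr1 to several myeloid cells, Ccr3 to eosinophils and some mast cells, Cxcr2 to neutrophils, Cxcr3 and Cxcr6 to activated T and NK cells, Ccr7 to migrating dendritic cells and naive lymphocytes, and Cxcr4 to most leukocytes and some stromal and vascular cells. In obese fat, the axis of Ccr2 and its ligand Ccl2 is best known for drawing monocytes into the tissue.

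Libraries held 17215072 to 18330206 counts in all, and 3 counts, the limit that a count of 0 allows, stood for 0.154 to 0.192 CPM, which covers counting error only. Eepd1 itself stood at 47.7 to 152 CPM in EKO and 192 to 304 CPM in WT (log2 difference -1.23 ± 0.42 SE, edgeR adjusted p = 0.106, DESeq2 adjusted p = 0.0162). The summed adipocyte markers given below were also lower in EKO, and they ranked the libraries in the same order as Eepd1. Their part in the Eepd1 difference was not tested, so this difference alone does not show the deletion. WT replicate 2 stood apart: the summed level of 10 testis and epididymis markers, led by Prm2 and Tnp2, was 1780 CPM there against 0.354 to 94.9 CPM in the other 5 libraries, and its summed level of 13 macrophage markers was the lowest, at 2440 CPM. The 10 adipocyte markers, led by Cidec and Lep, were present in every library, with a summed level of 2810 to 7210 CPM in EKO and 10400 to 14500 CPM in WT. They show that fat was present, and which depot it was from was not tested. In edgeR 0 of the 16121 genes (0%) had an adjusted p under 0.05, and 5264 (32.7%) had an unadjusted p under 0.05. DESeq2 called 3392 genes (21%), limma-voom 0, and limma-voom with sample quality weights 4101 (25.4%, of them 14.8% of genes higher and 10.6% lower). With WT replicate 2 left out, 443 genes (2.69%) passed in edgeR, 1.96% in the higher and 0.727% in the lower direction, and 0 chemokine receptors were among them.

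Ccr1 and Ccr3 separated the genotypes, with all 3 EKO libraries above all 3 WT libraries, and the other 7 receptors overlapped. Such separation was common across the table: 42.8% of all tested genes had groups that did not overlap, 25.1% in the higher and 17.7% in the lower direction. Neither receptor passed the edgeR test, and both did in DESeq2, where 10.9% of all genes were called higher and 10.1% lower. By unadjusted p under 0.05 in edgeR, 2 receptors were higher and 0 lower, where 18.9% of all tested genes were higher. Of the 8 tested receptors 7 had a fitted difference above 0 and 1 below, where 51.3% of all genes lay above 0 and 48.7% below, and their median was 0.32 on the log2 scale, against 0.02 over all genes tested. The sign depended on single libraries for Cx3cr1, Cxcr3, Cxcr4 and Cxcr6, and also for Ccr2, the receptor below 0.

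**Figure D1:**
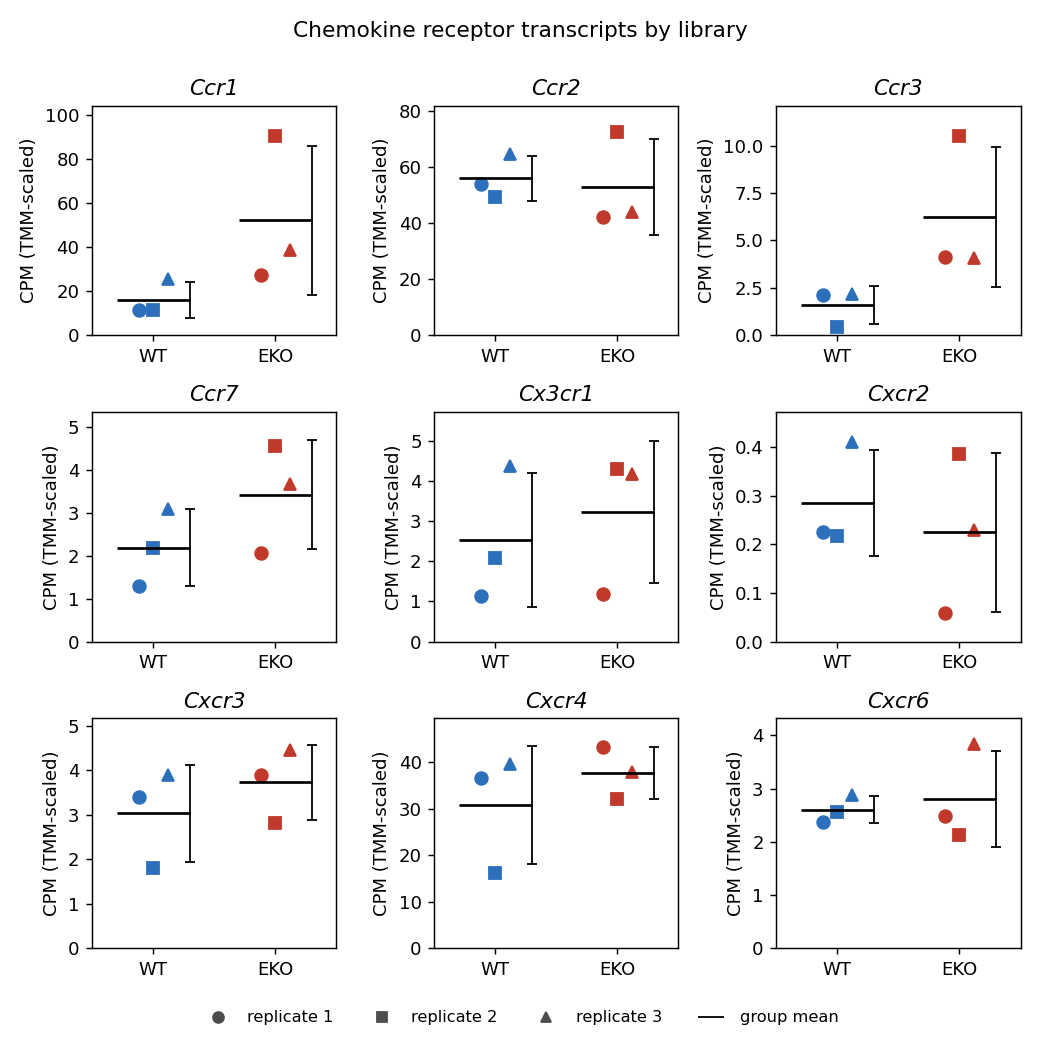
TMM-scaled CPM of the 9 chemokine receptors in each library, one panel per gene with its own axis from 0. Points are libraries, lines are the means of 3 libraries and bars are 1 SD. Ccr1 and Ccr3 separate the genotypes, with EKO replicate 2 the highest library for both, and the other 7 panels overlap.

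Ccr1 (ENSMUSG00000025804, protein coding, chromosome 9, 123962124 to 123968692, minus strand, GRCm38) encodes a receptor for inflammatory CC chemokines on monocytes, macrophages and other myeloid cells. It measured 27.4, 90.8 and 38.8 CPM in the EKO libraries against 11.4, 11.5 and 25.7 CPM in the WT libraries. EKO replicate 2 was far above all other libraries, and the gap between the lowest EKO and the highest WT library was narrow. On average this was 52.3 ± 33.8 against 16.2 ± 8.21 CPM (SD, n = 3), a 3.23-fold difference (log2 1.69 ± 0.54 SE, edgeR adjusted p = 0.0948). Over all alternatives the adjusted p ranged from 0.0163 (DESeq2) to 0.308. Without EKO replicate 2 the difference was 2.01-fold. The authors' deposited table gives a log2 fold change of 1.65 with an adjusted p of 0.0163 and marks the gene as significant.

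Ccr3 (ENSMUSG00000035448, protein coding, chromosome 9, 124021972 to 124031689, plus strand) encodes the eotaxin receptor. It measured 4.13, 10.5 and 4.06 CPM in the EKO libraries against 2.15, 0.436 and 2.16 CPM in the WT libraries. EKO replicate 2 was again the highest and WT replicate 2 the lowest library. The difference was 3.93-fold (6.24 ± 3.71 against 1.58 ± 0.991 CPM, SD, n = 3; log2 1.97 ± 0.69 SE, edgeR adjusted p = 0.110). Its adjusted p ranged from 0.0459 (DESeq2) to 0.384 over all alternatives. The difference was 2.52-fold without EKO replicate 2. The authors' deposited table marks Ccr3 as significant, with an adjusted p of 0.0460, in a table that marks 5.09% of genes as up and 5.04% as down.

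Markers of the cells known to carry Ccr1 and Ccr3 did not all stand higher in the same genotype. The 13 macrophage markers, led by Gpnmb and Lyz2, summed to 14400 to 22500 CPM in EKO and 2440 to 6240 CPM in WT, with 12 of 13 above 0 in their fitted log2 difference. The 8 mast cell markers, led by the proteases Tpsb2 and Mcpt4, summed to 146, 814 and 357 CPM in EKO and to 53.5 to 73.7 CPM in WT. EKO replicate 2 was thus highest in mast cell markers, in Ccr1 and in Ccr3. It was also highest in the macrophage (22500 CPM), leukocyte (5590 CPM) and dendritic cell (1280 CPM) sums. Its eosinophil sum was the lowest, at 11.8 CPM, and its T cell and B and plasma cell sums were not the highest. Its adipocyte (2810 CPM), endothelial (462 CPM) and mesothelial (33.2 CPM) sums were also the lowest of all libraries. The 5 eosinophil markers analysed summed to 11.8 to 19.9 CPM in EKO and 20.5 to 35 CPM in WT, lower in EKO. Most of this sum was Ear2. Of the 4 eosinophil markers tested, 2 lay above 0 and 2 below in their fitted log2 difference. Within that list Siglecf, an eosinophil lectin that some macrophages also express, stood at 1.72 ± 0.163 CPM in EKO and 0.702 ± 0.043 CPM in WT, whereas the ribonuclease gene Ear2, which macrophages also express, stood at 13.2 ± 4.06 and 26.4 ± 7.31 CPM (SD, n = 3). Prg2, an eosinophil granule protein, was at 0.629 CPM or less in every library. The part of these cells in the Ccr1 and Ccr3 differences was not tested. In bulk tissue, more cells of a type and more RNA per cell cannot be told apart.

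Ccr1, Ccr3 and Ccr2 lie near each other on chromosome 9, over 151.4 kb from the start of Ccr1 to the end of Ccr2, and had unlike differences between the genotypes. Beside Ccr1 (1.69) and Ccr3 (1.97), Ccr2 had a log2 difference of -0.08 ± 0.24 SE. On the other side of Ccr1, Cxcr6 (0.11 ± 0.31 SE) and Xcr1 (-0.38 ± 0.29 SE) had differences smaller in size than those of Ccr1 and Ccr3. Fyco1, a gene of another kind whose span holds Cxcr6, was at -0.55 ± 0.17 SE. Ccr1l1 had too few counts to test. Set against Ccr2 within each library, Ccr1 was at a log2 ratio of -0.63, 0.32 and -0.18 in EKO and of -2.25, -2.10 and -1.34 in WT. The ratio was thus higher in all 3 EKO libraries, by 1.73 on the log2 scale (exact two-sided permutation p = 0.1, the smallest that 3 against 3 allows). Ccr3 against Ccr2 gave 2.27, also non-overlapping with an exact permutation p = 0.1 (0.1 adjusted over the 2 ratios). Of all tested genes, 18.9% were higher per Ccr2 in every EKO library. Both ratios were chosen after the values were seen. Stretches of 50 bases that also occur in another gene made up 1.91% of the stretches in Ccr2 transcripts and 0 of those in Ccr1 and Ccr3.

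**Figure D2:**
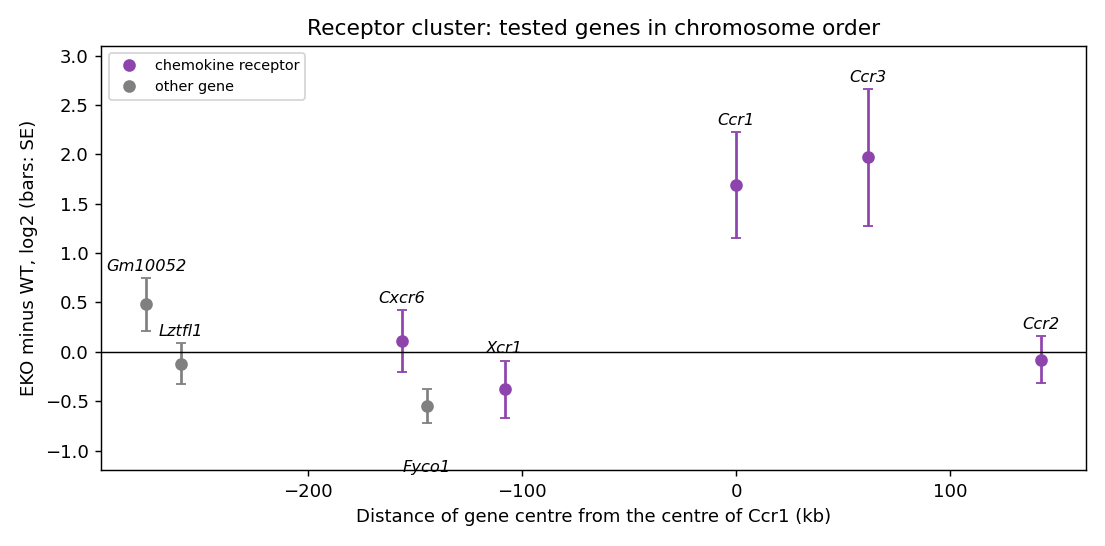
EKO minus WT log2 differences (points, with SE bars) of tested genes around the chromosome 9 receptor cluster, plotted by distance from the centre of Ccr1 in kb. Ccr1 and Ccr3 lie above 0 and Ccr2 lies at -0.08.

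The promoters of Ccr1, Ccr3 and Ccr2 are shown because these neighbours had log2 differences of 1.69, 1.97 and -0.08. Each is 300 bases, from 250 before to 50 after the annotated start, 5′ to 3′ on the gene's strand, from RefSeq on GRCm38.p6. Capitals mark GAGGAA on either strand, a core of the sites bound by the myeloid factor PU.1 and other ETS factors.
Ccr1 (chr9:123968643-123968942, minus strand): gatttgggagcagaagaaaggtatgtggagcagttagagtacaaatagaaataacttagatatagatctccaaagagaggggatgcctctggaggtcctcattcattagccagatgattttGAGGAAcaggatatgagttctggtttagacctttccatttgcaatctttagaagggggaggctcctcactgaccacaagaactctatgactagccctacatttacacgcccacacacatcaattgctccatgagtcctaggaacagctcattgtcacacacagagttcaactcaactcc
Ccr3 (chr9:124021721-124022020, plus strand): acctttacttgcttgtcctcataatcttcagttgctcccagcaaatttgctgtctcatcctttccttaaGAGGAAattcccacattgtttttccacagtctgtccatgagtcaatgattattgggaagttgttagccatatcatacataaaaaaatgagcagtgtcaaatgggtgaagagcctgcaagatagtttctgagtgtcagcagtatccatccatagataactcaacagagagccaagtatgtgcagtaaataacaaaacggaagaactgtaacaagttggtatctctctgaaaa
Ccr2 (chr9:124101933-124102232, plus strand): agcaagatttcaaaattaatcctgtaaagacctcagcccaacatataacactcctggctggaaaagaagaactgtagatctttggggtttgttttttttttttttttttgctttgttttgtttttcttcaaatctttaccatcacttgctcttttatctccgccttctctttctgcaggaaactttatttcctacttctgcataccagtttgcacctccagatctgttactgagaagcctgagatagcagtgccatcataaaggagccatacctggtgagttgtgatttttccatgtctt
The Ccr1 and Ccr3 windows each hold 1 match and the Ccr2 window 0. The Ccr2 span used for the counts begins at 124101950, so most of the Ccr2 window lies inside that span. The Ccr1 and Ccr3 windows lie mostly before theirs, so the 3 windows are not like regions. Among all 32851 promoter windows of this length, 28.3% hold the motif, and 4 of the 8 members with a window do (Ccr1, Ccr3, Cxcr2 and Cxcr3). ACCACA, the core of RUNX sites, was in 4 members' windows (Ccr1, Cx3cr1, Cxcr3 and Cxcr6) and in 16.8% of all windows. TGANTCA, the AP-1 motif, was in the Ccr3 window alone among the members and in 7.81% of all windows. Both strands were searched, and no match overlapped one of another motif in these windows. A match describes these letters and is not evidence of binding.

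Ccr2 (ENSMUSG00000049103, chromosome 9, 124101950 to 124113557), the receptor for Ccl2, measured 42.3, 72.7 and 43.9 CPM in the EKO libraries against 53.9, 49.4 and 64.8 CPM in the WT libraries. EKO held both the highest library and the 2 lowest. The means were 53.0 ± 17.1 and 56.0 ± 7.92 CPM (SD, n = 3; edgeR adjusted p = 0.827). The fitted difference of -0.08 was -0.40 without EKO replicate 2 and 0.07 without EKO replicate 1, so that its sign depends on single libraries.

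Cx3cr1 (ENSMUSG00000052336, chromosome 9, 119901616 to 120069879, minus strand) encodes the receptor for the membrane-bound chemokine fractalkine on patrolling monocytes and some resident macrophages. It measured 1.18, 4.30 and 4.17 CPM in the EKO libraries against 1.13, 2.07 and 4.36 CPM in the WT libraries. Each genotype thus had 1 library near 1 CPM and at least 1 above 4 CPM (log2 0.35 ± 0.66 SE, edgeR adjusted p = 0.731, and 1.02 without WT replicate 3). The annotated span of Cx3cr1 overlaps 8 other genes, 5 of them coding, and without strand information reads in shared stretches cannot be told apart. Monocyte markers, 7 in all and led by F13a1 and Ace, summed to 243 to 295 CPM in EKO and 293 to 413 CPM in WT with overlap. Most of this sum came from F13a1 (122 CPM on average in EKO and 182 in WT) and Ace (98.5 and 134 CPM). Among the 7 markers Ly6c2, of classical monocytes, was at 3.27 ± 1.09 and 2.85 ± 0.421 CPM (SD, n = 3). In the list, 5 of 7 lay above 0 with a median of 0.47 on the log2 scale, and Plac8 was higher in every EKO library (10.9 ± 0.4 against 5.66 ± 1.34 CPM, edgeR adjusted p = 0.0650, DESeq2 adjusted p = 0.00966).

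Cxcr4 (ENSMUSG00000045382, chromosome 1, 128588199 to 128592293), the receptor for Cxcl12, is used by many leukocytes and by some vessel cells. It measured 43.3, 32.1 and 37.9 CPM in the EKO libraries against 36.6, 16.2 and 39.7 CPM in the WT libraries. The spread in WT came from replicate 2, and the other 5 libraries lay between 32.1 and 43.3 CPM. The difference was 0.29 ± 0.34 SE on the log2 scale (edgeR adjusted p = 0.567) and -0.07 without WT replicate 2.

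The lymphocyte-associated receptors were low and overlapped. Cxcr3 (ENSMUSG00000050232, chromosome X, 101731535 to 101734269), the receptor for interferon-induced chemokines, measured 3.89, 2.82 and 4.46 CPM in the EKO libraries against 3.39, 1.80 and 3.9 CPM in the WT libraries, with replicate 2 lowest in both genotypes (log2 0.30 ± 0.37 SE, edgeR adjusted p = 0.590, and -0.02 without WT replicate 2). Cxcr6 (ENSMUSG00000048521, chromosome 9, 123806475 to 123811760, plus strand), which binds Cxcl16, measured 2.48, 2.12 and 3.83 CPM in the EKO libraries against 2.37, 2.56 and 2.87 CPM in the WT libraries. The WT libraries lay inside the EKO range (log2 0.11 ± 0.31 SE, edgeR adjusted p = 0.818, and -0.18 without EKO replicate 3). Cxcr6 lies inside the span of Fyco1 on the opposite strand, which had 945 to 2152 counts per library, so its counts are uncertain without strand information. Ccr7 (ENSMUSG00000037944, chromosome 11, 99144196 to 99155077), the homing receptor for lymph nodes, measured 2.06, 4.55 and 3.66 CPM in the EKO libraries against 1.30, 2.18 and 3.08 CPM in the WT libraries. Its 2 highest libraries were EKO, and EKO replicate 1 lay within the WT range (log2 0.64 ± 0.44 SE, edgeR adjusted p = 0.335).

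Markers of the cells that carry these 3 receptors varied in level. The 12 T cell markers, led by Cd4 and Lck, summed to 14.3 to 28.9 CPM in EKO and 11.6 to 15.9 CPM in WT, with overlap. The 10 NK and innate lymphoid cell markers summed to 32.8 to 67.9 and 23.1 to 31.9 CPM, mostly from Il1rl1, which mast cells also express (37.4 CPM on average in EKO and 15.2 CPM in WT), followed by Klrk1. The higher sum in EKO was thus mostly Il1rl1: 3 of the 10 lay above 0 in their fitted difference and 7 below, with a median log2 of -0.21. Groups did not overlap for 1 marker in each direction (background 25.1% higher and 17.7% lower). These were Il1rl1, higher in EKO, and Gzma, lower at 0.512 against 1.9 CPM on average. The NK receptor Ncr1 stood at 0.914 and 1.14 CPM. The 8 B and plasma cell markers, led by Jchain and Cd79a, reached 233 CPM in EKO replicate 3 against 56.2 to 113 CPM in the other 5 libraries. The 10 dendritic cell markers summed to 939 to 1280 CPM in EKO and 240 to 545 CPM in WT, led by Itgax, which lipid-laden macrophages also express, and Clec10a. Of the 10, 4 lay above 0 in their fitted difference and 6 below. Groups did not overlap for 4 in the higher and 3 in the lower direction (background 25.1% and 17.7%). Flt3 (log2 0.68 ± 0.27 SE) and Irf8 (0.95 ± 0.32 SE) were among the higher ones. Cd209a was among the lower ones, at 3.36 CPM on average in EKO and 7.85 CPM in WT. Fscn1 (-0.15 ± 0.21 SE) and Ccl22 (-0.13 ± 0.40 SE) overlapped. The part of all these markers in the receptor levels was not tested.

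Cxcr2 (ENSMUSG00000026180, chromosome 1, 74153989 to 74161246), the neutrophil receptor for the Cxcl1 and Cxcl2 group, was near the limit of detection. It had 1, 6 and 4 counts in EKO replicates 1, 2 and 3 and 4, 4 and 8 counts in WT replicates 1, 2 and 3, which is 0.059 to 0.385 CPM in EKO and 0.218 to 0.411 CPM in WT. A difference was not detectable at this depth. Of its transcripts' stretches of 50 bases, 6.68% also occur in other genes. Neutrophil markers were low too: 9 of them, led by Csf3r and Mmp9, summed to 21.2 to 28.5 CPM in EKO and 15.9 to 24.1 CPM in WT, and Retnlg, Camp and Ngp were at 0 in at least 1 library.

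Per kilobase of annotated exon, the mean levels of Ccr1 and Ccr3 took a higher place among the receptors in EKO than in WT. In WT the mean levels per kilobase ran from Cxcr4 (17.1 CPM per kb) over Ccr2 (8.29), Ccr1 (5.72), Cxcr3 (1.75), Cxcr6 (1.35), Ccr7 (1.11), Cx3cr1 (0.560) and Ccr3 (0.483) to Cxcr2 (0.0935). In EKO Ccr1 stood at 18.5 CPM per kb, above Ccr2 at 7.84 and below Cxcr4 at 20.9, and Ccr3 at 1.91 lay between Cxcr3 (2.15) and Ccr7 (1.73), ahead of Cxcr6 (1.45), Cx3cr1 (0.714) and Cxcr2 (0.0736). Exon lengths are unions over GENCODE M21 transcripts, and a long union, as for Ccr2 (6760 bases), lowers the level per kilobase. In EKO, 5 of the 8 pairs of neighbours in this order differed by less than the larger SD of the pair, and 3 by more (Ccr2 over Cxcr3, Cxcr6 over Cx3cr1, Cx3cr1 over Cxcr2). Ccr1 over Ccr2, Ccr3 over Ccr7 and Ccr7 over Cxcr6 were among the pairs within the SD. The higher places of Ccr1 and Ccr3 are thus not firm, and EKO replicate 2 was the highest library for both. In WT it was 4 and 4, and those beyond the SD were Cxcr4 over Ccr2, Ccr1 over Cxcr3, Ccr7 over Cx3cr1 and Ccr3 over Cxcr2.

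The receptors were also set against Ptprc, the CD45 transcript shared by leukocytes, whose own difference was 1.48 ± 0.40 SE on the log2 scale. Ptprc measured 370, 494 and 356 CPM in the EKO libraries against 165, 68.5 and 205 CPM in the WT libraries. The log2 ratio of Ccr2 to Ptprc was -3.13, -2.76 and -3.02 in EKO and -1.61, -0.47 and -1.66 in WT, in replicate order. Since Ptprc itself stood higher in EKO, most genes had a lower ratio: 83.1% of all other tested genes were lower per Ptprc in every EKO library, with a median difference of -1.58. For Ccr2 the EKO libraries lay below the WT libraries by 1.72 on the log2 scale (-2.97 ± 0.19 against -1.25 ± 0.67, SD, n = 3; exact permutation p = 0.1, 0.18 adjusted over the 9 receptors). Ratios of Cxcr4 (-1.22), Cxcr3 (-1.26), Cxcr6 (-1.54) and Cxcr2 (-2.26) were also lower in every EKO library, each with the same exact permutation p = 0.1, the smallest that the design allows, and the Cxcr2 ratio rests on 1 to 8 counts per library. These 5 of 9 receptors stand against the 83.1% of all genes, so their lower ratios are not particular to chemokine receptors. Cx3cr1 (-1.25) and Ccr7 (-0.94) were lower on average with overlap (exact permutation p = 0.3 for each). Ccr1 per Ptprc was nearly equal on average, at -3.13 ± 0.66 in EKO and -3.14 ± 0.66 in WT, a difference of 0.01 (exact permutation p = 1), and ranged from -0.35 to 0.32 with single libraries left out. Ccr3 per Ptprc was 0.55 higher with overlap (exact permutation p = 0.4). With Adgre1, the macrophage antigen F4/80, as reference, the Ccr2 ratio differed by -1.78 and the Ccr1 ratio by -0.05. WT replicate 2, the library with the lowest Ptprc, set the highest Ccr2 ratio, and without it the Ccr2 difference was -1.33.

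**Figure D3:**
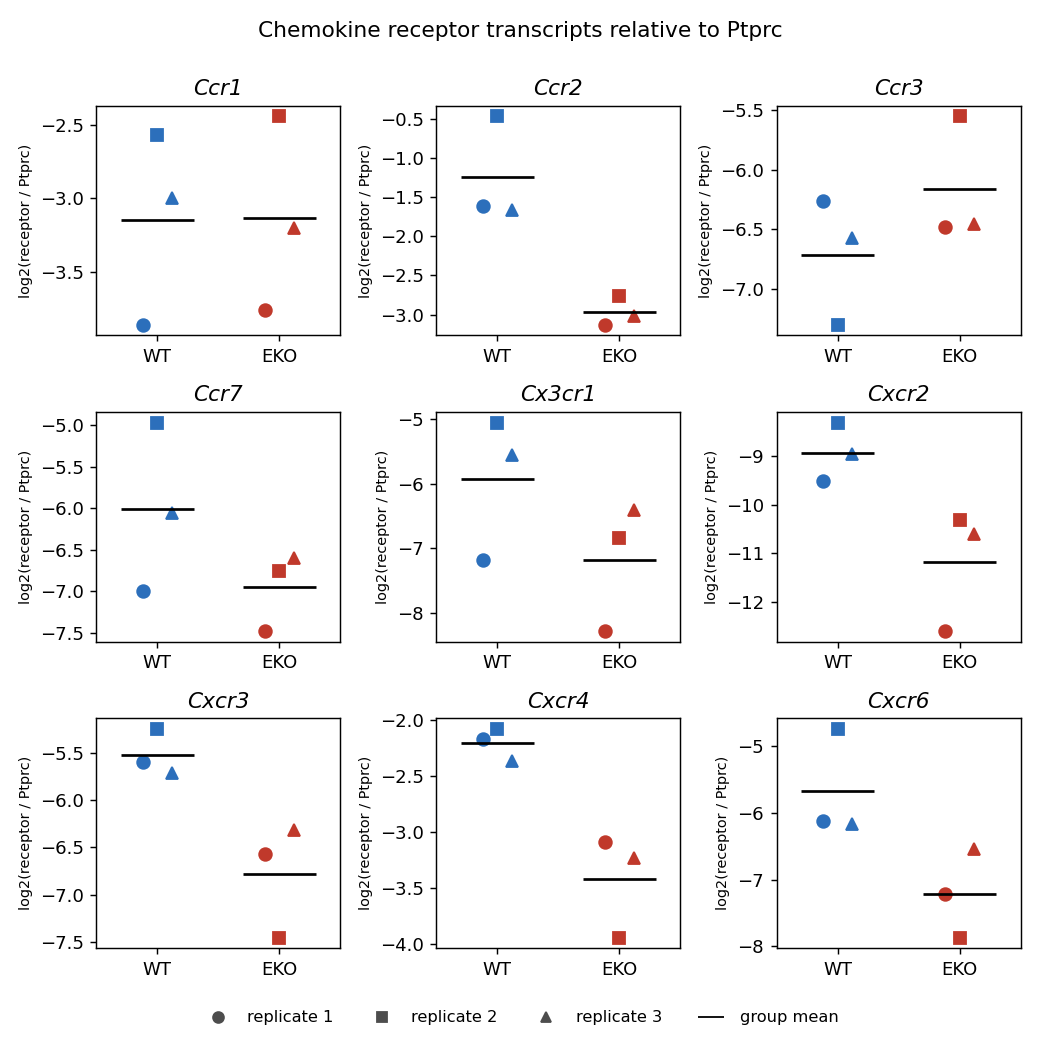
Log2 ratio of each receptor's CPM to that of Ptprc in each library, one panel per receptor with its own axis. Points are libraries and lines are the means of 3 libraries. Ccr2, Cxcr2, Cxcr3, Cxcr4 and Cxcr6 are lower in all 3 EKO libraries, as are 83.1% of all tested genes, and Ccr1 has nearly the same mean in both genotypes.

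Among 14 other chemokine receptors, 8 had enough counts to be tested, with 2 differences above and 6 below 0 and a median log2 of -0.33. None was called by edgeR, 1 was higher and 2 were lower at an unadjusted p under 0.05 (background 18.9% and 13.8%), and DESeq2 called 1 in each direction (background 10.9% higher and 10.1% lower). Ccrl2, a receptor that binds chemerin without known signalling, measured 25.2, 22.6 and 20.1 CPM in EKO against 14.4, 7.73 and 10.4 CPM in WT. The groups lay apart (2.09-fold, log2 1.06 ± 0.25 SE, edgeR adjusted p = 0.0650, DESeq2 adjusted p = 0.00879). Ackr3, the scavenging receptor for Cxcl12, measured 53.1, 33.0 and 44.5 CPM in EKO against 70.9, 59.0 and 81.6 CPM in WT, lower in all 3 EKO libraries (1.62-fold, log2 -0.69 ± 0.21 SE, edgeR adjusted p = 0.0819, DESeq2 adjusted p = 0.0221). Ackr4, the scavenger of the Ccr7 ligands, averaged 1.68 ± 1.08 and 5.14 ± 2.50 CPM with overlap (log2 -1.60 ± 0.60 SE, edgeR adjusted p = 0.127), and the difference was -2.25 without EKO replicate 3 and -0.72 with sample quality weights. The atypical receptors Ackr1 (-0.28 ± 0.32 SE) and Ackr2 (-0.50 ± 0.32 SE), Xcr1 of cross-presenting dendritic cells, Ccr10 (-0.14 ± 0.31 SE) and the B cell receptor Cxcr5 (0.19 ± 0.92 SE) had overlapping groups. The 9 endothelial markers, led by Cdh5 and Pecam1, summed to 462 to 848 CPM in EKO and 1160 to 1310 CPM in WT, and their part in the Ackr3 difference was not tested. Ccr4, Ccr6, Ccr8, Ccr9, Ccr1l1 and Cxcr1 were too low to test, each at 1.49 CPM or less in every library.

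**Figure D4:**
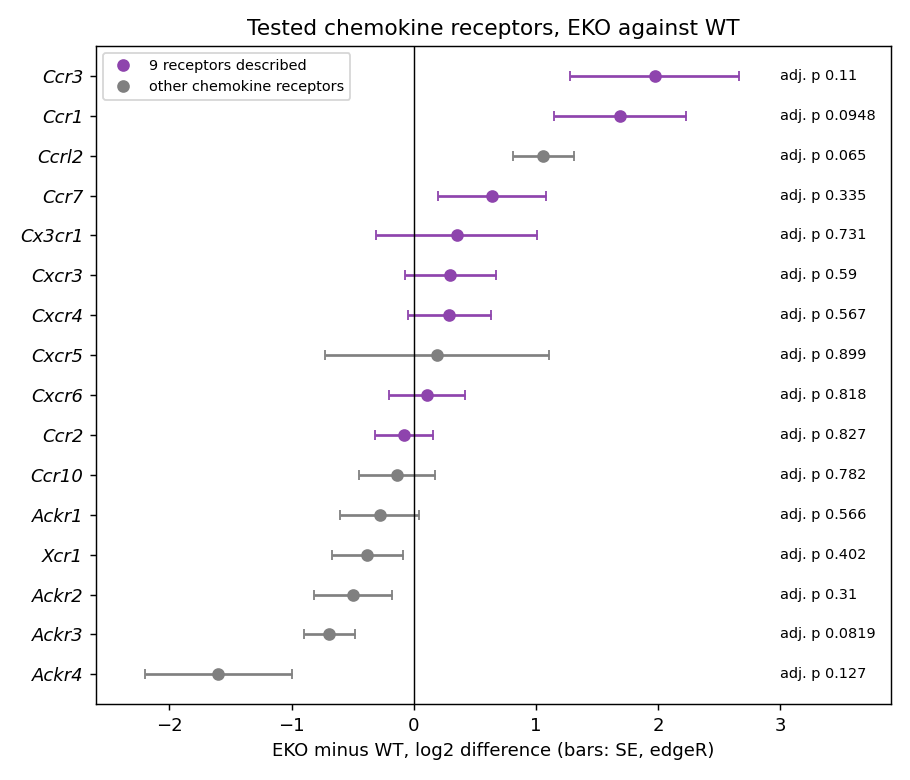
EKO minus WT log2 differences (points, with SE bars) and edgeR adjusted p of the tested chemokine receptors, with the receptors described here in purple and the rest of the family in grey. Ccr3 and Ccr1 lie farthest to the right, Ackr4 farthest to the left, and no adjusted p is below 0.05.

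The ligands of these receptors differed by receptor. Of 22 listed ligands, 20 had enough counts to be tested, 13 above 0 and 7 below, with a median of 0.43 on the log2 scale. No ligand was called by edgeR, 4 were higher and 5 lower at an unadjusted p under 0.05 (background 18.9% and 13.8%), and DESeq2 called 3 higher and 3 lower (background 10.9% and 10.1%). Groups did not overlap for 5 ligands in the higher and 5 in the lower direction, where 25.1% and 17.7% of all tested genes did so. Of the 5 listed Ccr1 ligands, 3 were higher in every EKO library (background 25.1%). Ccl3, a macrophage chemokine, measured 11.3, 21.2 and 16.4 CPM in EKO against 3.05, 1.14 and 5.08 CPM in WT, apart in all libraries (5.26-fold, log2 2.39 ± 0.55 SE, edgeR adjusted p = 0.0639). Ccl6 averaged 838 ± 309 and 326 ± 111 CPM and Ccl9 826 ± 145 and 309 ± 148 CPM (SD, n = 3), both without overlap (edgeR adjusted p = 0.0695 and 0.0724). The other listed Ccr1 ligands, Ccl5 and Ccl7, which Ccr3 also binds, overlapped, and Ccl7 moved from 0.58 to 1.20 without WT replicate 3.

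All 3 listed ligands of Ccr2 (Ccl2, Ccl7 and Ccl12) overlapped between the genotypes. Ccl2 measured 34.4, 78.6 and 60.7 CPM in EKO against 26.2, 10.7 and 58.4 CPM in WT (log2 0.86 ± 0.61 SE, edgeR adjusted p = 0.352). WT replicate 3 reached the EKO range, and the Ccl2 difference was 1.66 without it and 0.40 without WT replicate 2. Ccl12 had a log2 difference of 0.13 ± 0.65 SE. The eotaxins, which bind Ccr3, differed from each other. Ccl24, eotaxin-2, was lower in all 3 EKO libraries, at 2.06, 1.22 and 2.23 CPM against 6.90, 8.01 and 4.62 CPM in WT (3.53-fold, log2 -1.82 ± 0.35 SE, edgeR adjusted p = 0.0628, DESeq2 adjusted p = 0.000407). Ccl11, eotaxin-1, stood at 77.5 ± 34.0 and 54.9 ± 11 CPM with overlap (SD, n = 3).

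All 3 Cxcr3 ligands, which interferon-gamma induces, were lower in every EKO library (background 17.7%), while Cxcr3 itself overlapped. Cxcl9 measured 17.6, 6.41 and 11.7 CPM in EKO against 28.8, 34.3 and 22.7 CPM in WT (2.40-fold, log2 -1.26 ± 0.38 SE, edgeR adjusted p = 0.0819, DESeq2 adjusted p = 0.0104). Cxcl10 averaged 1.78 ± 0.696 and 3.35 ± 0.146 CPM (log2 -0.91 ± 0.33 SE, edgeR adjusted p = 0.120). Cxcl11, which the table annotates as a polymorphic pseudogene, had 3, 1 and 3 counts in EKO and 23, 19 and 15 counts in WT (log2 -2.83 ± 0.51 SE, edgeR adjusted p = 0.0628). The EKO libraries lie at or below the limit of 3 counts, so that the size of this difference is poorly set.

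For the remaining receptors, the fractalkine gene Cx3cl1 measured 7.78, 26.2 and 15.0 CPM in EKO against 7.35, 5.72 and 7.49 CPM in WT, with EKO replicate 1 barely above the WT libraries (log2 1.25 ± 0.44 SE, edgeR adjusted p = 0.110). Cxcl12, the Cxcr4 ligand of stromal cells, averaged 204 ± 44.8 and 248 ± 15.0 CPM with overlap (log2 -0.28 ± 0.18 SE, edgeR adjusted p = 0.297). Cxcl16, the Cxcr6 ligand, averaged 23.4 ± 2.71 and 15.3 ± 4.60 CPM without overlap (log2 0.61 ± 0.26 SE, edgeR adjusted p = 0.157). Among the Cxcr2 ligands, the platelet chemokine Ppbp was lower in all 3 EKO libraries (1.52 ± 0.766 against 3.75 ± 0.978 CPM, edgeR adjusted p = 0.102), Cxcl1, Cxcl2 and Cxcl5 overlapped with differences that single libraries set (without WT replicate 3 they were -0.20, 1.42 and 4.46, from -0.85, 0.50 and 0.89), and Cxcl3 was too low to test. The Ccr7 ligands were low, with at most 17 counts per library for Ccl19 and at most 41 for Ccl21a, in EKO replicate 3. Both have near-identical copies and 2 rows in the table, so their counts are uncertain.

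**Figure D5:**
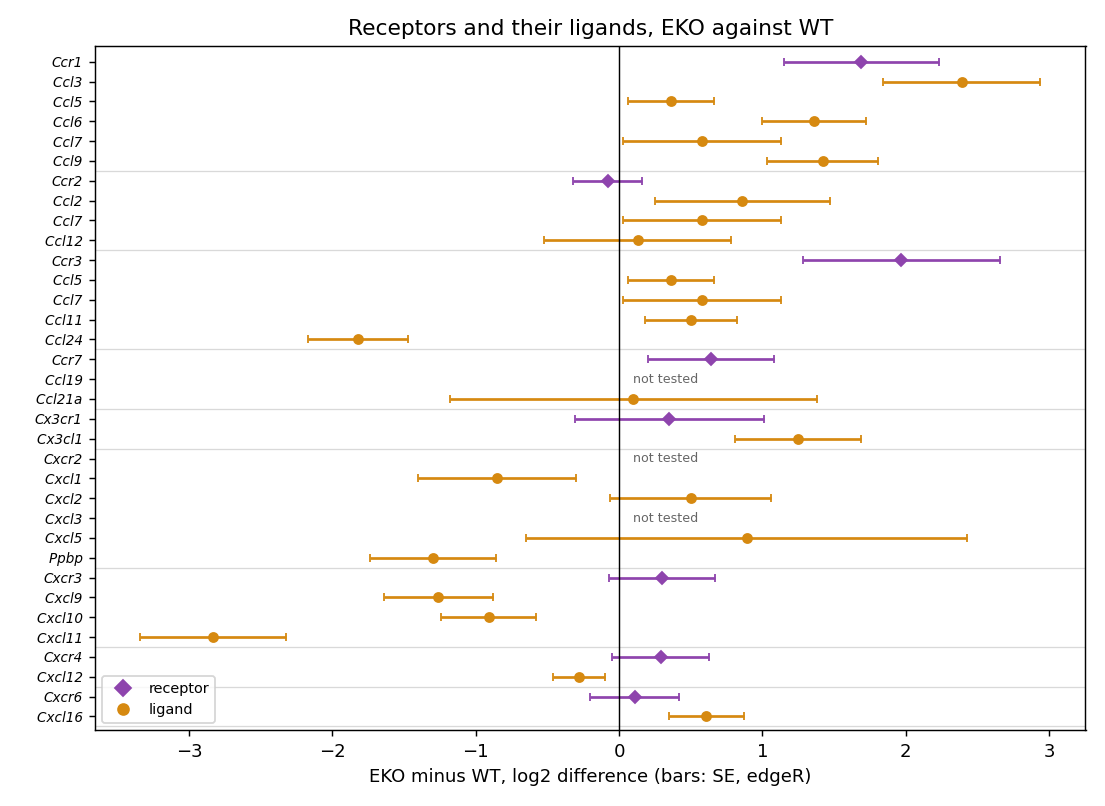
EKO minus WT log2 differences (points, with SE bars) of each receptor (diamonds) and of its listed ligands (circles), grouped by receptor. Ligands bound by several receptors appear under each. The ligands Ccl3, Ccl6 and Ccl9 lie above 0 beside Ccr1, and Cxcl9, Cxcl10 and Cxcl11 lie below 0 beside Cxcr3.

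Genes that act downstream of chemokine receptors were mostly higher in EKO. Of 28 listed signalling genes, all tested, 27 lay above 0 with a median log2 of 1.00, against 0.02 over all genes, where 51.3% of all genes lay above 0, and 22 had non-overlapping groups in the higher direction, where 25.1% of all genes did. None was called by edgeR, 19 were higher at an unadjusted p under 0.05 (background 18.9%), and DESeq2 called 18 (background 10.9%). Without WT replicate 2 edgeR called 5 (background 1.96%). Gng2, a G protein gamma subunit, measured 100, 106 and 89.2 CPM in EKO against 42.2, 31.6 and 45.2 CPM in WT, with tight groups (2.48-fold, log2 1.31 ± 0.16 SE, edgeR adjusted p = 0.0628, DESeq2 adjusted p = 4.09e-07). Rgs18, a regulator that shortens G protein signals, was 2.73-fold higher (39.9 ± 4.2 against 14.6 ± 4.28 CPM), and Rac2, the leukocyte GTPase that drives cell movement, 3.38-fold (156 ± 43.5 against 46.1 ± 19.0 CPM). Gnai3, a widely expressed inhibitory G protein alpha subunit, averaged 200 ± 25.7 against 133 ± 9.42 CPM (1.5-fold, SD, n = 3). For these 3 genes the edgeR adjusted p was 0.0628, 0.0628 and 0.0630. Many of the 28 genes are leukocyte genes. The 5 leukocyte markers, Ptprc among them and led by Lcp1 and Itgb2, summed to 3550 to 5590 CPM in EKO and 551 to 1820 CPM in WT, a mean ratio of 3.34, and their part in the signalling genes was not tested.

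The genes whose pattern over the 6 libraries was most like each receptor were sought by the root mean square difference of centred log2 CPM among 11692 or 11693 tested genes of at least 5 CPM. For Ccr1 they were Emb (0.237), Thy1 (0.243) and Txnrd1 (0.267), where the spread of Ccr1 itself was 1.03. For Ccr3 they included Ly9 (0.275) and the leukocyte integrin Itgb2 (0.293), against its own spread of 1.40. Those of Ccr2 were Spon2 (0.1), Klf2 (0.101) and Rgl1 (0.112), and those of Cxcr4 were H2-DMb1 (0.101), Abcg3 (0.104) and Lsp1 (0.127). Lsp1 was also the nearest to Cxcr3 (0.0969), followed by Tlr9 (0.110) and Pdlim1 (0.139). Ccr7 lay nearest to Il33 (0.161), Pou2f2 (0.190) and Junb (0.202), and Cxcr6 to Polr2h (0.0963), Gm5518 (0.0979) and Tfap4 (0.119). The genes near Cx3cr1 included Cadm4 (0.412) and Socs3 (0.420), against its own spread of 0.852. Own spreads were 0.283 for Ccr2, 0.27 for Cxcr6, 0.432 for Cxcr3, 0.474 for Cxcr4 and 0.596 for Ccr7. A receptor that varies little can have small distances for that reason alone, so distances are not comparable between receptors. These are descriptions over 6 libraries that share genotype and tissue makeup.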

How the data were processed

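The 6 bulk mRNA libraries were grouped by genotype and replicate number as the labels give them. Sequences were placed on GRCm38, per the submitters' processing notes. Aligner, counter and strand setting: not given in the sources used here. The authors deposited raw read counts for each gene and, per the file headers, a mean signal, a fold change (ratio), its log2 value, and raw and adjusted p-values. Genes that the authors marked as significant have an absolute log2 of at least 1 and an adjusted p of at most 0.0498.

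From the counts, filterByExpr kept 16121 genes and TMM set the scaling. Genotype was the only model term of the quasi-likelihood test in edgeR 4.0.16 (R 4.3.3), read at a Benjamini-Hochberg adjusted p of 0.05. A standard error is the log2 difference divided by the square root of its F value. Between libraries the biological coefficient of variation was 37%. Ratios to a reference gene were compared with exact two-sided permutation tests over libraries. Exon lengths and transcripts are those of GENCODE M21 (GRCm38) and promoters those of RefSeq (GRCm38.p6), which held 8 of the 9 members. The main edgeR fit, DESeq2 and both limma-voom fits were first tested on simulated data, and the other alternatives were not.

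Members and gene lists were chosen with earlier results of these data known. Genes named are the 9 members, tested family receptors, paired ligands, the 4 signalling genes of smallest p, the 2 most abundant markers of a list and the genes of nearest pattern. Other markers named, and the ratios to Ccr2, were picked after their values were seen. Lists for progenitor and stromal cells (2730 to 3970 CPM summed per library) and for mesothelium (33.2 to 333 CPM) were also measured. Ly6g, Epx, Ear6 and Lcn5 are not analysed here, and a few genes that these rules name are not reported here. Tried as alternatives were size factors of DESeq2, plain totals or upper quartiles as scaling, looser and stricter count filters, DESeq2 1.42.0, voom in limma 3.58.1 (plain, or weighting samples by quality), a replicate block, and leaving out each library. The pseudocount planned in case of normalized values did not apply to counts.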

Additional observations from a re-analysis of the deposited data

How the results depend on the processing

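Of the 9 receptors, edgeR called 0 under every scaling, filter and left-out library, and limma-voom 0, while DESeq2 called 2 (Ccr1, adjusted p = 0.0163, and Ccr3, adjusted p = 0.0459) and limma-voom with sample quality weights 1 (Ccr1, adjusted p = 0.0394). Over all genes DESeq2 called 3392 (21%) and the weighted fit 4101 (25.4%). With 1 library left out edgeR called 0 to 443, the highest without WT replicate 2. The cause was not tested. Ccr1 and Ccr3 lay above 0 under all alternatives, at 1.01 to 2.20 and 1.22 to 2.27 on the log2 scale. With single libraries left out, the difference spanned 0 for Ccr2 (-0.40 to 0.07), Cx3cr1 (-0.03 to 1.02), Cxcr3 (-0.02 to 0.53), Cxcr4 (-0.07 to 0.52), Cxcr6 (-0.18 to 0.26), Cxcr5 (-1.01 to 0.82), Ccl12 (-0.42 to 0.49) and Ccl21a (-3.01 to 1.02). Ccl21a was -0.95 in limma-voom and -0.37 with sample quality weights, and Ccr10 was 0.00 with the weights. The other scalings moved the median of all genes by at most 0.099 and turned no named gene. Deviations of same-numbered libraries correlated at 0.272, -0.312 and -0.355, and those of differently numbered libraries at -0.385 to 0.454. With 3 libraries per genotype these values cannot tell whether the numbers pair the libraries. With the replicate block edgeR called 0 genes, and Ccl21a was -0.67. With 3 libraries per genotype and wide spread, differences of low receptors such as Cxcr2 were not detectable at this depth.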
